A study of Mus musculus with 12 samples.

Results

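Replication-dependent histone genes supply the core and linker histones that package new DNA during S phase. They are the members described here, and they were chosen by symbol, as every row of the deposited gene table whose name begins with Hist1h, Hist2h, Hist3h or Hist4h. That rule took 67 of 32101 features, namely 6 genes for H1, 19 for H2A, 18 for H2B, 11 for H3 and 13 for H4. All 67 are annotated as protein-coding. Small RNA-seq had measured RNAs of 20 to 24 nt in mouse embryonic stem cells (ESCs), pluripotent cells of the early embryo. The values below therefore count short RNAs on histone genes and not intact messages. They are taken here as fragments of histone mRNA, although counting did not separate strands. Whether introns were counted is not stated. The libraries were wild type (WT, 6 libraries from 3 cultures), a knockout of Dnmt1, the enzyme that copies DNA methylation at replication (Dnmt1 KO, 2 libraries from 1 culture), and a knockout of Dnmt1 together with Dicer, the ribonuclease that cuts small RNAs from longer precursors (Dicer/Dnmt1 KO, 4 libraries from 2 cultures). Culture here means the libraries that share a number in their titles, or the unnumbered Dnmt1 KO pair. The labels do not say that these are cultures. Libraries A and B of a culture may be technical repeats, in which case p-values measure in part the spread between repeats.

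All libraries are labelled with the E14 background. The study's methods describe the line with the deletable Dnmt1 alleles as C57BL/6. CRISPR was used on it to make a line with deletable Dicer alleles and another with Dicer deleted from the start. Conditional deletion was induced through Cre by tamoxifen, and cells grew in serum and LIF with or without feeder cells. For its double-knockout small RNA-seq, the paper names the conditional line and normalizes to the same line without induction. The labels name neither the line of the WT libraries nor which Dicer line was used, so line and genotype cannot be told apart. The WT culture 2 is the pair titled E14 2, which is labelled wild type but carries no WT in its title. In bulk RNA, fewer cells in S phase and less histone RNA per cell cannot be told apart.

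Histone mRNAs of this class are made mainly in S phase, carry no poly(A) tail and end just after a conserved stem-loop. The stem-loop binding protein SLBP holds this structure, and the U7 snRNP guides the cut behind it. When replication stops, the messages are uridylated at the 3′ end and degraded rapidly. Replication-independent histone genes such as H3f3a lie alone in the genome, and most make polyadenylated mRNA.

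The 3′ stem-loop is shown first because it is the shared end of these mRNAs and because its near identity limits how a short read can be assigned to 1 gene. It was searched for as a 6-base stem beginning GG, a 4-base loop and the reverse complement of the stem, on the gene's own strand in the 100 bases after the coding part (genome build NCBIM37, GENCODE annotation). It was found in 60 of the 67 members, against 65 of the 22297 windows of other protein-coding genes (0.292%) and 0.559% of all protein-coding windows. The windows below are 24 bases long, the upper read length, with the stem and loop in capitals. Of the 7 histone genes, 5 have the most reads in their type. Hist1h3c and Hist1h4a have the second most in H3 and H4 and were added after the sequences were seen, because their loops differ from that of the leading gene. H2afx is the replication-independent histone gene, of 12 searched, that holds one.
Hist1h1c: aaaGGCTCTTTTCAGAGCCaccac
Hist1h2ag: aaaGGCTCTTTTCAGAGCCaccta
Hist1h2bh: aaaGGCTCTTTTCAGAGCCactca
Hist1h3g: aaaGGCTCTTCTTAGAGCCaccca
Hist1h3c: aaaGGCTCTTTTAAGAGCCaccta
Hist1h4h: aaaGGCCCTTTTCAGGGCCgccca
Hist1h4a: aaaGGCCCTTCTCAGGGCCgccca
H2afx: aaaGGCCCTTTTAAGGGCCaccac
In NCBIM37 the window of Hist1h3g lies at chr13:23627755-23627778 on the plus strand, that of Hist1h2bh at chr13:23634792-23634815 on the minus strand and that of Hist1h4h at chr13:23623324-23623347 on the plus strand. The windows of Hist1h1c (chr13:23831378-23831401) and H2afx (chr9:44143320-44143343) are on the plus strand, and those of Hist1h2ag (chr13:22134347-22134370), Hist1h3c (chr13:23836911-23836934) and Hist1h4a (chr13:23852664-23852687) on the minus strand.

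The stem set H4 apart from the other histone types. All 6 H1, 17 H2A, 13 H2B and 11 H3 genes with a stem-loop had the stem ggctct. Of the 13 H4 genes, 11 had ggccct and 2 had ggtcct. The loop was tttc in 46 of the 60 genes, ttta in 9 and tttt in 3. Hist1h3g was the 1 member with the loop tctt, and Hist1h4a the 1 with tctc. The 60 windows held 33 distinct sequences. The window occurred at a single genomic place for 21 members, among them Hist1h3g, Hist1h3c, Hist1h4h and Hist1h4a. It was shared for 39 members, with 6 genomic copies of the Hist1h1c window and 7 of the Hist1h2ag window. The 7 members without a match in their window were Hist2h2bb, Hist2h2be, Hist1h2an, Hist1h2bp, Hist1h2bq, Hist1h2br and Hist1h2al. The window began at the outermost coding end of a gene, so a stem-loop behind an earlier stop codon could be missed. The deposited table does not give the position of reads within a gene, so it is not known how many reads came from the stem-loop.

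Reads on the members were few. Summed over the 12 libraries there were 1126, of which 933 were in WT, 47 in Dnmt1 KO and 146 in Dicer/Dnmt1 KO. Library reads ran from 8710 to 245184, and 1 read was worth between 4.08 and 114.8 RPM (reads scaled to a library of 1000000 reads). A read was found on 55 of the 67 members, with 27 holding 1 to 9 reads, 21 holding 10 to 29 and 7 holding 30 or more. H3 took 31.5% of the reads with 11 genes, H2B 25.6%, H4 18.2%, H2A 13% and H1 11.7%. Per kilobase of exon, H3 and H4 led with 36.2 and 30.6 reads, ahead of H2B with 16.3, H1 with 15.5 and H2A with 10.8. The members together held 20.04 reads per kilobase. The 12 replication-independent histone genes in the table held 63 reads, or 2.24 per kilobase. Per kilobase the replication-dependent genes were above the replication-independent ones in 12 of 12 libraries, although by 5.26 against 4.20 RPM per kilobase in Dnmt1 KO A.

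The reads were concentrated in part of the loci. The chromosome 13 cluster from 23622919 to 23856283, 29 genes over 233 kb, held 854 of the 1126 reads (75.8%), and 28 of its 29 genes had a read. The chromosome 13 group from 21807632 to 21929399 has 18 genes and held 72 reads. The Hist2 cluster on chromosome 3 (9 genes) held 125 reads, of which 96 were on Hist2h2bb. The 3 chromosome 13 genes with the most reads, Hist1h4h, Hist1h3g and Hist1h2bh, are neighbours within 12310 bp (23622919 to 23635228) and took 388 reads (34.5%).

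Near-identical copies limit these assignments. A median of 37.1% of a member's exonic 20-base windows occurred at a single place in the genome, with a range from 0% to 98.1%. The 12 members without a read had a median of 2.21%, and the 55 with a read 39.4%. The 6 members with no unique 20-base window, Hist2h2aa1, Hist2h2aa2, Hist1h2ao, Hist1h2ap, Hist1h2bq and Hist1h2br, were all among the 12 without a read. A low unique share did not by itself go with few reads, since Hist1h2bh had 20.1% and 103 reads. In the other direction, Hist1h1t, the testis linker histone, had 98.1% unique windows and 0 reads, and Hist2h2be had 79.2% and 0 reads. Across the 67 genes, which share libraries and sequence, Spearman's rho between reads and unique share was 0.40, given as a description. The testis-type genes Hist1h2aa and Hist1h2ba had 1 read each. How the authors placed reads with several mapping positions is not stated for this table. Values of a single gene may therefore include reads of its copies, or lack reads that were left out. Sums by type are given beside them, but would not restore reads that were left out. Values per kilobase of exon, and shares by type or locus, are open to the same loss, which was not tested.

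**Figure D1:**
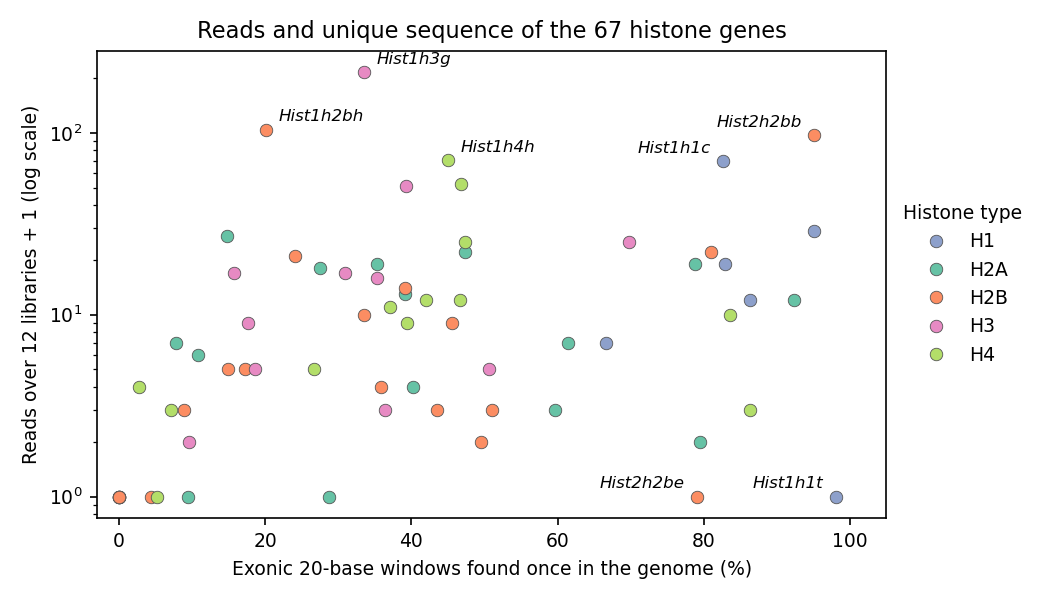
Reads over the 12 libraries plus 1 (log scale) against the percentage of exonic 20-base windows found at a single place in the genome, 1 point for each of the 67 histone genes, coloured by type. The 6 genes with 0% unique windows, at the left edge, had no read, while Hist1h3g (215 reads) and Hist1h2bh (103 reads) sit high with 33.5% and 20.1% unique windows.

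Summed over all members, histone fragments made up between 0.0251% and 0.187% of library reads. In WT the sums were 1236, 1869, 496, 435, 1718 and 1153 RPM for 1A, 1B, 2A, 2B, 3A and 3B. In Dnmt1 KO they were 296 and 251 RPM in A and B. In Dicer/Dnmt1 KO they were 653, 1148, 646 and 524 RPM in 1A, 1B, 2A and 2B. The Dnmt1 KO libraries lay below every WT library, while the Dicer/Dnmt1 KO libraries lay among the WT libraries and above WT culture 2. WT averaged 1151 ± 598 RPM (SD, n = 6), Dnmt1 KO 273 ± 31.5 (n = 2) and Dicer/Dnmt1 KO 743 ± 277 (n = 4). The ratio of means was 0.237 for Dnmt1 KO to WT and 0.646 for Dicer/Dnmt1 KO to WT. No test was made on a sum over members, since the members were chosen with results of these data known. Libraries A and B of a culture differed by 1.14 to 1.76 times in this sum. The highest Dicer/Dnmt1 KO value, 1148 RPM in 1B, rested on 10 reads, with a 95% Wilson interval from 624 to 2112 RPM, and WT 2A rested on 8 reads (251 to 978 RPM). Intervals cover counting error only.

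**Figure D2:**
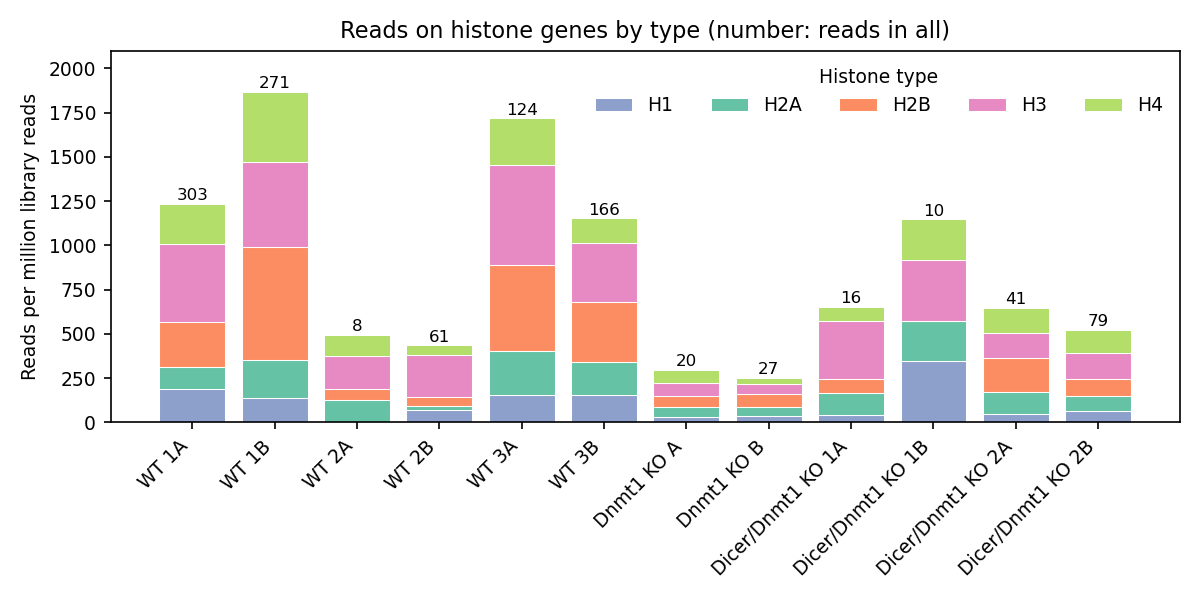
RPM on histone genes in each of the 12 libraries, stacked by histone type, with the number of reads above each bar. The Dnmt1 KO bars (296 and 251 RPM) are the lowest, and the WT culture 2 bars (496 and 435 RPM) stand below the other 4 WT libraries.

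The scale of RPM itself moved between genotypes, because reads on miRNA genes differed. They came to 29% to 69.5% of library reads in WT and to 65.4% and 62.7% in Dnmt1 KO. Across the Dicer/Dnmt1 KO libraries they came to 6.68% to 12%. Histone reads were therefore also set against mRNA fragments, the reads on 20646 protein-coding genes that overlap no annotated small RNA. This denominator was chosen after seeing the data. Histone reads were 1.16%, 1.59%, 0.735%, 0.50%, 1.34% and 0.914% of mRNA fragments in WT 1A, 1B, 2A, 2B, 3A and 3B. They were 0.366% and 0.397% in Dnmt1 KO A and B. They were 0.410%, 0.514%, 0.417% and 0.343% across Dicer/Dnmt1 KO 1A, 1B, 2A, then 2B. On this scale the knockout libraries lay close together, and 5 of the 6 were below every WT library, the exception being Dicer/Dnmt1 KO 1B at 0.514% (interval 0.279% to 0.943%) against 0.50% in WT 2B. WT averaged 1.04% ± 0.404 (SD, n = 6), Dnmt1 KO 0.382% ± 0.0225 (n = 2) and Dicer/Dnmt1 KO 0.421% ± 0.0704 (n = 4). The Dicer/Dnmt1 KO to Dnmt1 KO ratio was 2.72 by RPM and 1.10 by mRNA fragments. TMM factors scale libraries by a trimmed mean of log ratios. With them the histone sum was 600 to 1858 RPM in WT, 403 and 329 for Dnmt1 KO, and 384 to 587 for Dicer/Dnmt1 KO. Neither knockout overlapped WT on that scale. For Dicer/Dnmt1 KO the margin was 587 RPM in 1B against 600 RPM in WT 2B. That gap is smaller than the counting error of the 10 reads in 1B.

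**Figure D3:**
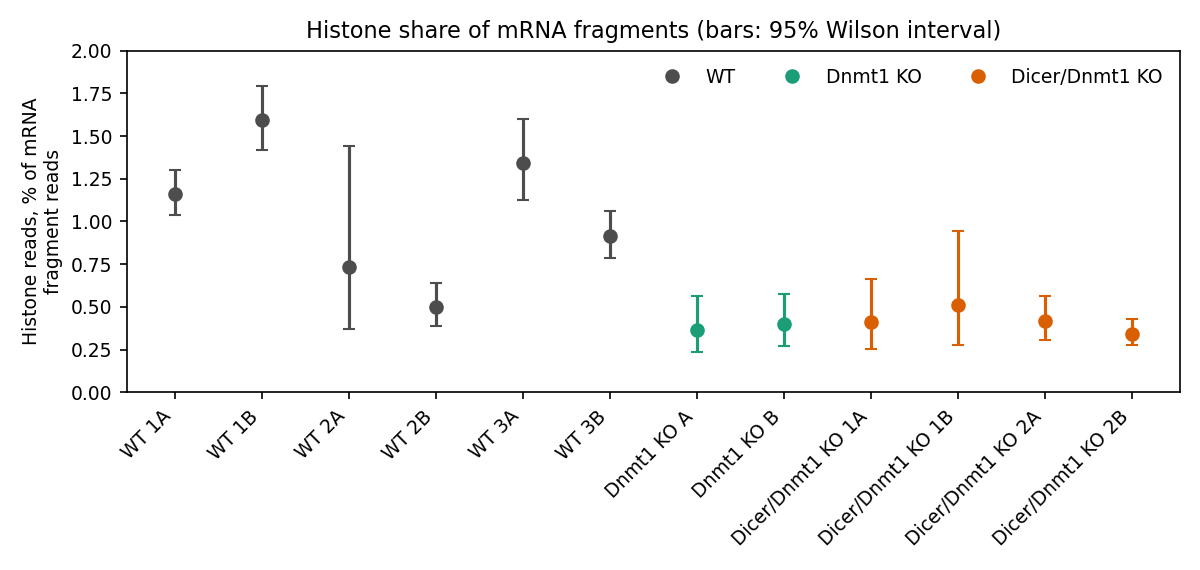
Histone reads as a percentage of mRNA fragment reads in each library, with 95% Wilson intervals, coloured by genotype. WT spans 0.50% to 1.59% and the knockouts 0.343% to 0.514%.

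Fragments of other abundant mRNAs are given beside the histones. The 14 listed abundant mRNAs, among them Actb and Hsp90ab1, summed to 186 to 750 RPM in WT, 207 and 260 in Dnmt1 KO, against 574 to 741 across the Dicer/Dnmt1 KO libraries. Histone reads per read of these mRNAs were 1.05 to 2.79 in WT, 1.43 and 0.964 in Dnmt1 KO, against 0.823 to 2.00 across the Dicer/Dnmt1 KO libraries, so on this denominator the groups overlapped. Of the 14, Actb and Hsp90ab1 were tested and 0 were called in any comparison.

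For single genes, limma compared the genotypes on log2(RPM + 10) after TMM scaling over 683 features with enough reads, and a feature was called at a Benjamini-Hochberg adjusted p below 0.05. The filter, at least 111 RPM in 2 libraries and 15 reads in all, left 5 of the 67 members, namely Hist1h3g, Hist1h2bh, Hist2h2bb, Hist1h4h and Hist1h4d. They passed mainly through WT, so a lower value in the knockouts was favoured by the filter, and their count supports nothing about the 62 genes not tested. In Dnmt1 KO against WT, 1 of the 5 fell, while 0.293% of all tested features were called lower. In Dicer/Dnmt1 KO against WT, 2 of the 5 fell, while 19.0% of all tested features were called lower. In Dicer/Dnmt1 KO against Dnmt1 KO, 0 of the 5 were called (0 at an unadjusted p under 0.05), while 22.8% of all tested features were called in either direction. No member was called higher in any of these. The median log2 fold change of the 5 was -1.80, -1.71 and 0.55 in this order, against 0.13, -0.09 and -0.16 over all 683 features and -0.07, -0.01 and 0.15 over the 121 tested mRNA genes, which include the 5. The comparisons with WT share the WT libraries.

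H1 binds the linker DNA between nucleosomes. Its 6 genes had 46, 20, 0, 10, 11 and 22 reads in WT 1A, 1B, 2A, 2B, 3A and 3B, which is 0 to 188 RPM. They had 2 and 4 reads in Dnmt1 KO (29.6 and 37.2 RPM) and 1, 3, 3 and 10 across Dicer/Dnmt1 KO 1A, 1B, 2A, then 2B (40.8, 344, 47.3 and 66.4 RPM). The knockout libraries lay below the WT libraries of cultures 1 and 3 except for Dicer/Dnmt1 KO 1B, and WT 2A had no H1 read, which at its depth allows up to 186 RPM. Hist1h1c (ENSMUSG00000036181.1; chr13:23830676-23832235, plus strand), a somatic H1 subtype, led with 69 reads. It had 22, 11, 0, 6, 8 and 11 reads in WT, 1 and 1 in Dnmt1 KO, then 0, 3, 1 and 5 in Dicer/Dnmt1 KO. Hist1h1a (ENSMUSG00000049539.1; chr13:23855537-23856283, plus strand) had 10, 3, 0, 2, 1 and 8 reads in WT, 1 and 1 in Dnmt1 KO, then 1, 0, 1 and 0 in Dicer/Dnmt1 KO. Neither passed the filter. Both have largely unique sequence (82.7% and 95.1% of 20-base windows), so their reads are less exposed to copies than those of most core histone genes. Some core genes are as unique, such as Hist2h2bb (95.1%), and the stem-loop window of Hist1h1c has 6 genomic copies.

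H2A and H2B form the dimers on either side of the H3-H4 tetramer. The 19 H2A genes summed to 126, 214, 124, 21.4, 249 and 188 RPM in WT 1A, 1B, 2A, 2B, 3A and 3B, 59.1 and 46.5 in Dnmt1 KO, then 122, 230, 126 and 79.6 in Dicer/Dnmt1 KO. The Dnmt1 KO libraries were below 5 of the 6 WT libraries and above WT 2B, and the Dicer/Dnmt1 KO libraries lay within the WT range. The reads were spread over many genes, and the leading pair, Hist1h2ag and Hist1h2ae, took 32.2% of them. Hist1h2ag (ENSMUSG00000069301.4; chr13:22134348-22134818, minus strand) had 7, 8, 0, 0, 2 and 5 reads in WT, 0 in Dnmt1 KO, then 0, 0, 1 and 3 in Dicer/Dnmt1 KO. With 14.8% unique windows it is one of the members whose reads are least certain. Hist1h2ae (ENSMUSG00000069272.4; chr13:23662386-23663089, minus strand) differed from the other leading genes in having similar read numbers at lower depth. It had 2, 5, 0, 0, 2 and 2 reads in WT (14 ± 14.4 RPM, SD, n = 6), 3 and 2 in Dnmt1 KO (31.5 ± 18.2, n = 2), then 1, 1, 2 and 1 in Dicer/Dnmt1 KO (48.5 ± 46.5, n = 4). Without the single read of Dicer/Dnmt1 KO 1B the last mean was 26.3 RPM, and these 21 reads were too few for a test.

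The 18 H2B genes summed to 253, 641, 61.9, 49.9, 485 and 340 RPM in WT, 59.1 and 74.3 in Dnmt1 KO, then 81.7, 0, 189 and 99.5 in Dicer/Dnmt1 KO. The 4 WT libraries of cultures 1 and 3 were above every knockout library, and WT culture 2 lay among the knockouts, although on the TMM scale WT 2A (148 RPM from 1 read) was above them all. The 0 reads of Dicer/Dnmt1 KO 1B allow up to 344 RPM. Hist1h2bh (ENSMUSG00000064168.3; chr13:23634793-23635228, minus strand) had 21, 44, 0, 1, 18 and 14 reads in WT, which is 85.6, 303, 0, 7.13, 249 and 97.3 RPM. It had 0 and 0 reads in Dnmt1 KO, and 0, 0, 2 and 3 (0, 0, 31.5 and 19.9 RPM) in Dicer/Dnmt1 KO. The 4 WT libraries of cultures 1 and 3 stood above all others and WT culture 2 did not. Taking 3 reads over both Dnmt1 KO libraries as the floor gave 17.1 RPM. That floor was 7.23-fold below the WT mean of 124 RPM (SD 126). The ratio is in unscaled RPM, covers counting error in Dnmt1 KO only and leaves out the WT spread. By RPM, WT 2A (0) and WT 2B (7.13) lay below the floor themselves, although 0 reads in WT 2A allow up to 186 RPM. A firm fold difference therefore cannot be given for Hist1h2bh. By limma the fitted log2 fold changes were -2.86 (SE 1.15, adjusted p 0.202) in Dnmt1 KO and -2.07 (SE 0.91, adjusted p 0.129) in Dicer/Dnmt1 KO against WT, neither of which passed. Without the WT culture 2 libraries both passed (-4.16, adjusted p 0.00263, and -3.27, adjusted p 0.00125).

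Hist2h2bb (ENSMUSG00000050936.3; chr3:96073644-96082924, plus strand) is unlike the other leading members in having 2 exon blocks, over 9281 bp. It has 95.1% unique windows, and no stem-loop was found after its outermost coding end. A stem-loop behind an earlier stop codon was not searched for. It had 24, 28, 1, 1, 9 and 19 reads in WT, which is 97.9, 193, 61.9, 7.13, 125 and 132 RPM. It had 3 and 2 reads in Dnmt1 KO (44.3 and 18.6 RPM), then 0, 0, 4 and 5 in Dicer/Dnmt1 KO (0, 0, 63.1 and 33.2 RPM). By RPM the WT culture 2 libraries lay within the range of the knockouts, and the other 4 WT libraries above it. On the TMM scale WT 2A (148 RPM from 1 read) was above it too. It fell in Dicer/Dnmt1 KO against WT with a log2 fold change of -2.25 (limma, SE 0.73, adjusted p 0.0365). In Dnmt1 KO the log2 fold change was -1.06 (SE 0.92, adjusted p 0.606), and the difference between the knockouts was -1.19 (SE 0.98, adjusted p 0.541). This call was lost with culture as a random block (adjusted p 0.0937) and with the culture number as a replicate block (0.141). It was also lost with library reads as the scale (0.0782), no filter (0.218), a pseudocount of 1 (0.0529), voom (0.239) and A and B summed (0.279). Leaving out WT 1A, 1B, 3A or 3B gave 0.0528, 0.083, 0.0534 and 0.0531, and leaving out Dicer/Dnmt1 KO 1A or 1B gave 0.0993 and 0.108. Over all alternatives the adjusted p ran from 0.0049 to 0.279.

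H3 and H4 form the core tetramer. The 11 H3 genes summed to 440, 476, 186, 235, 568 and 334 RPM in WT 1A, 1B, 2A, 2B, 3A and 3B, 73.9 and 55.8 in Dnmt1 KO, then 327, 344, 142 and 146 in Dicer/Dnmt1 KO. By RPM every Dnmt1 KO library was below every WT and every Dicer/Dnmt1 KO library, and the Dicer/Dnmt1 KO libraries overlapped WT. On the TMM scale H3 was 300 to 512 RPM in WT, 101 and 73 in Dnmt1 KO and 91.2 to 192 across Dicer/Dnmt1 KO, so that both knockouts lay below WT and overlapped each other. Without Hist1h3g the unscaled H3 sum was 0 to 263 RPM in WT, 14.8 and 27.9 in Dnmt1 KO, against 73.0 to 163 across the Dicer/Dnmt1 KO libraries. Hist1h3g alone took 60.6% of the H3 reads and 215 of all 1126.

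Hist1h3g (ENSMUSG00000062417.5; chr13:23627291-23627820, plus strand), a gene for replication-dependent H3, was the member with the highest WT level per length (448 RPM per kilobase of exon, against 284 for Hist1h2bh, the next) and was the 1 member with a read in all 12 libraries. It had 67, 48, 3, 21, 22 and 26 reads in WT 1A, 1B, 2A, 2B, 3A and 3B, which is 273, 331, 186, 150, 305 and 181 RPM. It had 4 and 3 reads in Dnmt1 KO (59.1 and 27.9 RPM), then 4, 2, 4 and 11 in Dicer/Dnmt1 KO (163, 230, 63.1 and 73.0 RPM). As RPM, Dnmt1 KO lay below all WT libraries, and the 2 libraries of Dicer/Dnmt1 KO culture 1 lay within the WT range. On the TMM scale used by the test, WT ran from 162 to 444 RPM, Dnmt1 KO was 80.7 and 36.5, and Dicer/Dnmt1 KO was 95.9, 117, 40.5 and 72.3, so that neither knockout overlapped WT. It fell in Dnmt1 KO against WT with a log2 fold change of -2.12 (limma, SE 0.56, adjusted p 0.0352) and in Dicer/Dnmt1 KO against WT with -1.71 (SE 0.44, adjusted p 0.00944). Between the knockouts the log2 difference was 0.41 (SE 0.59, adjusted p 0.769). With culture as a random block the Dnmt1 KO call was lost (adjusted p 0.132) and the Dicer/Dnmt1 KO call held (0.0362). Neither call held with library reads as the scale (0.0602 and 0.184), without a filter (0.718 and 0.743) or with A and B summed (0.305 and 0.0616). The Dnmt1 KO call was further lost with medians of ratios (0.053), factors from snoRNAs and snRNAs (0.156), factors from mRNA fragments (0.0583) and a pseudocount of 1 (0.0697). Leaving out WT 1A, 1B, 3A or 3B gave it 0.123, 0.0592, 0.11 and 0.0764, and leaving out Dnmt1 KO A or B gave 0.142 and 0.586. The Dicer/Dnmt1 KO call was further lost without Dicer/Dnmt1 KO 2A (0.0872). Over all alternatives the adjusted p ran from 0.0123 to 0.718 in Dnmt1 KO and from 0.00345 to 0.743 in Dicer/Dnmt1 KO. Hist1h3g was picked out in an earlier account of these data, so its place here is not independent evidence.

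Hist1h3c (ENSMUSG00000069310.2; chr13:23836842-23837471, minus strand) had 20, 7, 0, 2, 7 and 5 reads in WT, 0 and 1 in Dnmt1 KO, then 3, 0, 2 and 3 in Dicer/Dnmt1 KO. It did not pass the filter. Its WT mean was 46.0 ± 37.7 RPM (SD, n = 6). The Dicer/Dnmt1 KO mean of 43.5 ± 54.3 RPM (n = 4) rested on 3 reads in the shallow library 1A, and was 17.1 without it. On the TMM scale the means were 46.1 and 28 RPM.

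The 13 H4 genes summed to 228, 400, 124, 57.1, 263 and 139 RPM in WT, 73.9 and 37.2 in Dnmt1 KO, then 81.7, 230, 142 and 133 in Dicer/Dnmt1 KO. Dnmt1 KO overlapped WT through WT 2B alone, while Dicer/Dnmt1 KO overlapped WT with or without that library. Hist1h4h (ENSMUSG00000060981.4; chr13:23622919-23623388, plus strand) had 19, 24, 0, 1, 9 and 6 reads in WT, 0 and 1 in Dnmt1 KO, then 0, 0, 3 and 7 in Dicer/Dnmt1 KO. Its log2 fold change was -1.80 in Dnmt1 KO (SE 1.08, limma adjusted p 0.418) and -1.25 in Dicer/Dnmt1 KO (SE 0.86, adjusted p 0.365) against WT. Without WT culture 2 both passed (adjusted p 0.0355 and 0.0426). Hist1h4a (ENSMUSG00000060093.4; chr13:23852561-23853099, minus strand) had 9, 14, 0, 6, 5 and 7 reads in WT (49.0 ± 32.4 RPM), 2 and 2 in Dnmt1 KO (24.1 ± 7.75), then 1, 1, 1 and 3 in Dicer/Dnmt1 KO (47.8 ± 46.0), and was not tested. Without the single read of Dicer/Dnmt1 KO 1B the last mean was 25.5 RPM. Hist1h4d (ENSMUSG00000061482.6; chr13:23673467-23673859, plus strand) had 6, 4, 2, 0, 2 and 3 reads in WT, 1 and 0 in Dnmt1 KO, then 0, 1, 1 and 4 in Dicer/Dnmt1 KO. It passed the filter through 2 reads in WT 2A and 1 read in Dicer/Dnmt1 KO 1B, the shallowest libraries, and its fold changes of -1.21 (SE 1.07, adjusted p 0.608) and -0.60 (SE 0.85, adjusted p 0.729) were within their errors. It reached 115 RPM in its second library, just over the filter, while Hist1h1c with 69 reads reached 111 and stayed just under it.

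**Figure D4:**
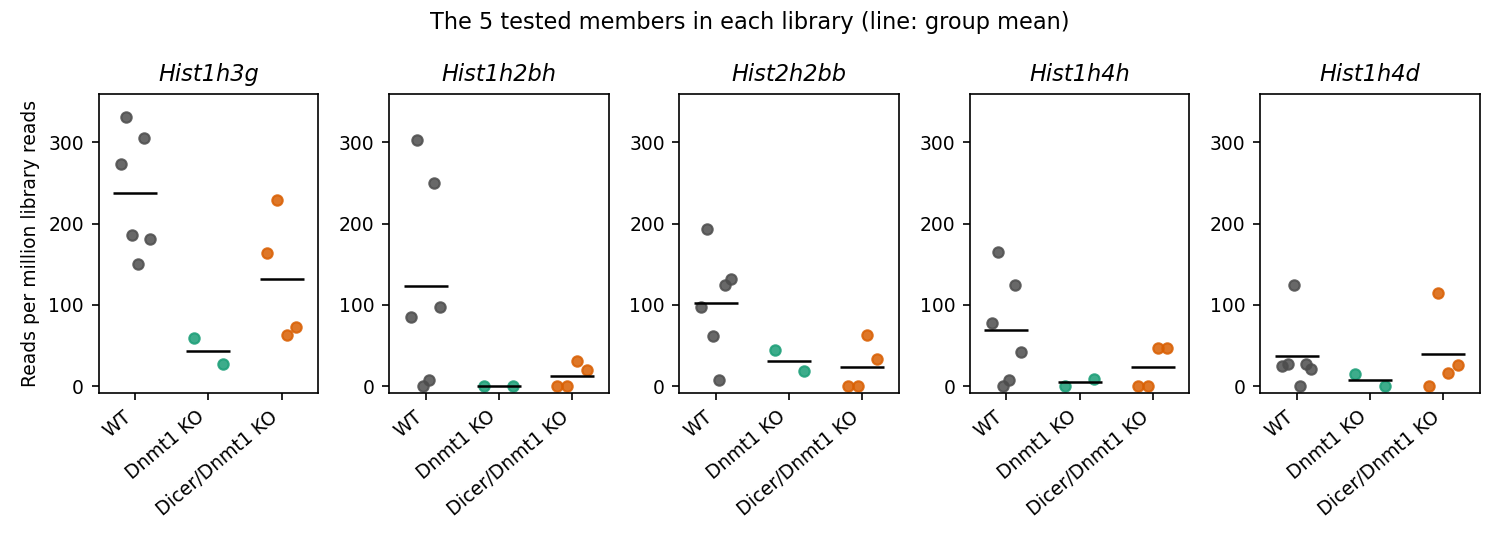
RPM of the 5 tested histone genes in each library, by genotype, with lines at the group means. Hist1h3g is the gene in which both Dnmt1 KO libraries (59.1 and 27.9 RPM) sit clear of all 6 WT libraries (150 to 331 RPM).

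The 62 genes that were not tested held 618 reads. Summed, they gave 677, 848, 124, 264, 887 and 681 RPM in WT 1A, 1B, 2A, 2B, 3A and 3B, 177 and 195 in Dnmt1 KO, then 490, 804, 426 and 325 in Dicer/Dnmt1 KO. By RPM Dnmt1 KO was again below 5 of the 6 WT libraries, here above WT 2A, whose sum was 2 reads. On the TMM scale Dnmt1 KO (242.0 and 255.7 RPM) was below all 6, the lowest of which was WT 2A at 296. By type, H3 made up 32.4% of the histone reads in WT, 23.4% of the 47 reads in Dnmt1 KO and 28.8% of the 146 reads in Dicer/Dnmt1 KO. H2B made up 26.5%, 25.5% and 19.9%, and H1 11.7%, 12.8% and 11.6%. H4 made up 17.5%, 19.1% and 22.6%, and H2A 12%, 19.1% and 17.1%. A read was found on 54 of the 67 genes in WT, 24 in Dnmt1 KO and 40 in Dicer/Dnmt1 KO, numbers that also follow the depth of the groups.

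Other genes of histone mRNA metabolism gave too few fragments to compare. The list of 21 genes for processing and decay, including Slbp for the stem-loop binding protein, Lsm10 and Lsm11 of the U7 snRNP, Eri1 for the 3′ exonuclease of the stem-loop and the uridylyl transferase genes Zcchc11 and Zcchc6, held 194 reads. Each of the 21 had at least 1 read and at most 18, Slbp had 8, and 0 of the 21 passed the filter. Their sum was 124 to 221 RPM in WT, 103 and 121 in Dnmt1 KO, against 0 to 212 across the Dicer/Dnmt1 KO libraries. Of the 12 replication-independent histone genes in the table, 9 had a read and 0 passed the filter. H2afx, which also carries the stem-loop and can end there, led them with 18 reads, followed by H2afy with 15 and Cenpa with 8. Their sum was 0 to 62.5 RPM in WT, 118 and 9.29 in Dnmt1 KO, against 0 to 122 across the Dicer/Dnmt1 KO libraries, with overlapping groups. The U7 snRNA gene on chromosome 6 (124691243 to 124691304, minus strand) was looked up after its values were seen. It had 73 reads, while the other 115 features named U7 had none, and was not called, with log2 fold changes of 0.38 (SE 1.04, limma adjusted p 0.889) and -0.16 (SE 0.82, adjusted p 0.923) in Dnmt1 KO and Dicer/Dnmt1 KO against WT.

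The 20 S phase genes, which encode replication and cell cycle proteins such as Pcna, the Mcm helicase and Rrm2, all had a read and held 749, of which 456 were on Ccne2. Their sum was 374 to 759 RPM in WT, 443 and 753 in Dnmt1 KO, against 459 to 995 across the Dicer/Dnmt1 KO libraries. The groups overlapped in this sum, most of which was Ccne2. Over the other 19 genes, a split made after the values were seen, WT had 200 to 334 RPM, Dnmt1 KO 148 and 121, and Dicer/Dnmt1 KO 0 to 408. The 0 was in Dicer/Dnmt1 KO 1B, where 0 reads allow up to 344 RPM. Both Dnmt1 KO libraries then lay below every WT library, as they did for the histones, by RPM and by TMM. The TMM values were 202 and 158 against 212 to 740 RPM, a narrow gap, with 10 reads in Dnmt1 KO A and 17 in WT 3A. As a share of mRNA fragments the Dnmt1 KO libraries were 0.183% and 0.191%, against 0.184% to 0.46% in WT, which overlaps. These 19 genes gave 10 and 13 reads in Dnmt1 KO, and their part in the histone values was not tested. Ccne2, for cyclin E2, was the 1 gene of the list to pass the filter and was not called (log2 fold change 1.22, SE 0.70, limma adjusted p 0.388 in Dnmt1 KO and 0.16, SE 0.56, adjusted p 0.888 in Dicer/Dnmt1 KO).

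Listed miRNAs of ESCs and of fibroblasts and feeder cells were set beside the histones. Dicer cuts miRNAs from their precursors, so miRNA levels in Dicer/Dnmt1 KO cannot show the cell type of those libraries. All 12 ESC miRNA genes had reads, summing to 28683 to 93275 RPM in WT, 55926 and 99648 in Dnmt1 KO, against 1221 to 3797 across the Dicer/Dnmt1 KO libraries. Of the 10 tested, 0 were called in Dnmt1 KO against WT, while 6.9% of all tested features were called in either direction. The list did not move as 1 there, with log2 fold changes from -2.18 (Mir302a) to 1.54 (Mir290) and a median of -0.06. In Dicer/Dnmt1 KO against WT 10 fell, among them Mir292 and Mir295, while 19.0% of all tested features were called lower. The 7 listed fibroblast and feeder miRNAs summed to 6877 to 13873 RPM in WT, 37250 and 46019 in Dnmt1 KO, against 9953 to 32982 across the Dicer/Dnmt1 KO libraries. Of these, 3 were tested and 3 rose in Dnmt1 KO, namely Mir143, Mir21 and Mir22, while 6.59% of all tested features were called higher. In Dicer/Dnmt1 KO 1 of the 3, Mir143, rose, while 5.12% of all tested features were called higher. Mir145, Mir214, Mir199a-1 and Mir199a-2 had 0 to 18 reads each in all libraries. In Dicer/Dnmt1 KO against WT, Mir21 and Mir22 were not called (log2 fold changes -0.66 and -0.78, limma adjusted p 0.186 and 0.241). Any part of feeder cells in the histone values was not tested.

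By RPM, WT culture 2 lay below the other WT cultures in the histone sum. With TMM factors this held for WT 2B (600 RPM) but not for WT 2A (1183, against 1036 in WT 3B). The culture's library 2B had 14.3% of its library reads on mitochondrial genes, against 1.27% to 6.02% in the other 11 libraries. Without WT culture 2, 4 members were tested. Of these, 3 (Hist1h3g, Hist1h2bh and Hist1h4h) fell in Dnmt1 KO against WT, where 12.9% of the 660 features then tested were called lower, and 4 (these and Hist2h2bb) fell in Dicer/Dnmt1 KO, where 20.3% were. These were the WT libraries with the lowest histone RPM, so leaving them out raises the WT level by construction. The ratio of mean histone RPM to WT was then 0.183 in Dnmt1 KO and 0.497 in Dicer/Dnmt1 KO. Counting did not separate strands, and 7 members overlap another feature in part or whole. Of these, Hist1h4b shares all of its 11 reads in number with the lincRNA 4930558J22Rik on the opposite strand, Hist3h2a (11 reads) lies within the limits of Trim17, and Hist2h2aa1 overlaps Hist2h3c1, so the origin of these reads is uncertain.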

How the data were processed

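Small RNA-seq libraries of mouse ESCs were analysed, 6 WT, 2 Dnmt1 KO and 4 Dicer/Dnmt1 KO, grouped by the genotype label. The submitters' processing notes name Trim Galore 0.3.5 and Bowtie2 2.2.6. Trimmed reads of 20 to 24 nt were mapped by the authors to NCBIM37, and overlaps with annotated features were counted in SeqMonk. The deposited values were log2 RPM, with 0 reads written as 0.9 read. Taking the lowest value of each column as 0.9 read gave whole reads for 100% of the values (tolerance 0.02 read) and library reads from 8710 to 245184. Reads summed over features differed from library reads in both directions, with 181772 against 145026 in WT 1B and 209289 against 245184 in WT 1A. Percentages of library reads are therefore not exact shares. A further 89 value columns carry names of no sample analysed here and were left aside.

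Gene types, exons and sequence came from the GENCODE annotation and genome of NCBIM37, in which all 32101 features matched. Reads were scaled by TMM (30% of log ratios and 5% of abundances trimmed) and tested as log2(RPM + 10) by limma 3.58.1 under R 4.3.3, its variance trended on mean level, over all 12 libraries and without covariates, with Benjamini-Hochberg adjustment over 683 features. To be tested, a feature had to reach 111 RPM (10 reads in a library of median depth) in 2 libraries and hold 15 reads in total. Fold changes are on the log2(RPM + 10) scale and so are understated for low features. Sums over members were not tested. A count of 0 allows up to 3 reads, and intervals are 95% Wilson intervals that cover counting error only. Libraries A and B of a culture differed beyond counting noise in 6 of 6 cultures (chi-square per degree of freedom from 13.6 to 42.5). They were kept separate, although this difference does not make them independent replicates. With culture as a random block, the fitted correlation between libraries of a culture was 0.30.

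The members and gene lists were chosen with earlier results of these data known. Named genes were the 2 members with the most reads in each type, every member called and Hist1h3g. Hist1h4d, tested but not called, was added after its values were seen. Listed genes were counted, and named where called. Alternatives were other scalings, filters, pseudocounts and models, summing A and B, blocking by culture and leaving out libraries.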

Additional observations from a re-analysis of the deposited data

Results flagged for a closer look

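Each value was compared with the other libraries of its genotype in WT and in Dicer/Dnmt1 KO by Dixon's criterion, over 36 groups of values, and 3 stood apart, where chance flags about 1 in 20 groups. H1 histone RPM in Dicer/Dnmt1 KO 1B was 344.4, against 66.4 in the next library, and this is the same event as Hist1h1c RPM in that library, 344.4 against 33.2, since it rests on 3 reads among 8710. Hist1h4d RPM in WT 2A was 123.9, against 27.7 in the next library, and rests on 2 reads. These are the shallowest library of each genotype.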

How the results depend on the processing

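In Dnmt1 KO against WT, where 1 member was called, 0 were called with library reads alone, medians of ratios, factors from snoRNAs and snRNAs, factors from mRNA fragments (added after seeing the data), no filter, pseudocount 1, A and B summed, or culture as random block, 3 were called without WT culture 2, and 0 to 2 with a library left out. In Dicer/Dnmt1 KO against WT, where 2 were called, 0 were called with library reads alone, no filter or A and B summed, 1 with pseudocount 1, voom or culture as random block, 4 without WT culture 2, and 1 to 3 with a library left out. Between the knockouts 0 were called in every setting run. The cause was not tested.

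With the culture number as a replicate block, 1 member (Hist1h3g, adjusted p 0.036) was called in Dicer/Dnmt1 KO against WT and Hist2h2bb was lost (0.141). Same-numbered libraries did not deviate together (correlations of -0.23, 0.11, -0.17 and -0.28), so the numbers were not taken as pairs, and the best correlation was with the same-labelled library for 0 of 4 WT and 1 of 4 Dicer/Dnmt1 KO libraries.

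The ratio of mean histone levels, Dnmt1 KO to WT, was 0.40 per snoRNA read and 0.366 per mRNA fragment read, against 0.237, and 0.211 to 0.271 with a library left out. Dicer/Dnmt1 KO to WT was 0.371 per snoRNA read, 0.404 per mRNA fragment read and 0.446 per protein-coding read, against 0.646, and 0.528 to 0.737 with a library left out. Dicer/Dnmt1 KO to Dnmt1 KO was 0.927 per snoRNA read, 1.10 per mRNA fragment read and 1.80 per protein-coding read, against 2.72, and 2.23 to 2.99 with a library left out. The fold changes of the 5 tested members kept their direction against WT in every setting run. Between the knockouts, the direction reversed for Hist1h3g with factors from snoRNAs and snRNAs (-0.029). With either Dnmt1 KO library left out, the log2 fold change ranged from -0.22 to 0.87 for Hist1h3g, from -0.31 to 1.42 for Hist1h4d and from -0.060 to 1.09 for Hist1h4h. Library reads alone moved the median log2 fold change of all features in Dicer/Dnmt1 KO against WT to 0.61, from -0.09. At this depth 62 members could not be tested.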
